A study of Mus musculus with 4 samples.

Results

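The matrix metalloproteinases (MMPs), the ADAMTS proteases and their tissue inhibitors (TIMPs) were taken from the count table by gene name, as every row named Mmp, Adamts or Timp1 to Timp4 with a number and, for MMPs, an optional a or b. The rule found 45 of 32285 genes: 22 MMPs, 19 ADAMTS genes and 4 TIMPs. The libraries came from GS cells, spermatogonia grown in culture from the testes of wild-type mice aged 10 days. There were 2 libraries from C57BL/6 (B6) and 2 from strain 129, and the titles of the B6 libraries also carry F0, which the labels do not explain and which cannot be told apart from strain. All were stranded mRNA libraries of single 76 bp reads, with totals of 20375086 to 25374801 counts. The labels do not say whether a strain's pair of libraries had separate origins, in culture or in mice, and the p-values therefore measure only how far these samples spread, which may be technical.

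MMPs and ADAMTS proteases are zinc enzymes that cut proteins of the extracellular matrix. MMPs are made as inactive proenzymes, opened by other proteases, and held in check by the TIMPs, which sit in the active site. ADAMTS proteases carry thrombospondin repeats and include the enzymes that cut aggrecan and versican and those that trim procollagen. In the testis these enzymes and inhibitors are made mostly by somatic cells and act on the basement membrane and the junctions of the seminiferous epithelium.

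Many MMP genes of inducible expression share a promoter with an AP-1 site, the element bound by Fos and Jun proteins, close to a TATA box. The stretches just before a start annotated in RefSeq are shown because most genes of 1 cluster on chromosome 9 carry this element while their levels differed widely in these cultures. Capitals mark a match to TGANTCA, the AP-1 core with any base in the middle, which reads alike on both strands.
Mmp13: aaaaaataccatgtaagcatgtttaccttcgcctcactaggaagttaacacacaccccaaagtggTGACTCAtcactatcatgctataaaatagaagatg
Mmp3: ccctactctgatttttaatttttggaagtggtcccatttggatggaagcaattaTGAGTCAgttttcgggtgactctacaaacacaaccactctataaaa
Mmp10: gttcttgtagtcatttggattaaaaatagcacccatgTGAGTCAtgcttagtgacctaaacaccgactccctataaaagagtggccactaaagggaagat
Mmp12: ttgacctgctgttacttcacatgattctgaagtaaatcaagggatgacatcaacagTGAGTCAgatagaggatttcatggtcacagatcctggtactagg
Mmp1b: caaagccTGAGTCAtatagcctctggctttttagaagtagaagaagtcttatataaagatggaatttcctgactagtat
Mmp8: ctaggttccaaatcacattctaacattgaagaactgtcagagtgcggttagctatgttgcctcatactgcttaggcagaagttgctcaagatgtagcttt
Mmp11: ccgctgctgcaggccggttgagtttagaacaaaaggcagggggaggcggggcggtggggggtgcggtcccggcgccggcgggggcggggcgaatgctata
Timp3: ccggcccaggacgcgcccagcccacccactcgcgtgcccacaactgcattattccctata

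The sequences are from RefSeq on GRCm38.p6, a C57BL/6 reference, written 5′ to 3′ on the strand of the gene. They lie at chr9:7272414-7272513 (Mmp13), chr9:7445722-7445821 (Mmp3), chr9:7502242-7502341 (Mmp10), chr9:7347274-7347373 (Mmp12), chr9:7388048-7388126 (Mmp1b), chr9:7558329-7558428 (Mmp8), chr10:75932503-75932602 (Mmp11) and chr10:86300312-86300371 (Timp3). Mmp1b and Mmp11 are on the minus strand and the others on the plus strand. The stretches of Mmp12 and Mmp11 lie inside the gene spans of the GENCODE annotation (chromosome 9, 7344381-7369499, and chromosome 10, 75923222-75936496). Its gene starts lie further upstream for both. In windows of 300 bases, 250 before and 50 after the start, TGANTCA was present in 7.81% of 32851 mouse promoter windows. Of the 45 members 31 had such a window. The motif was in a window of 7 of the 9 members of the chromosome 9 cluster and of 0 of the 22 other members with a window. Counted from the RefSeq start, it began 35 bases before the start in Mmp13, 46 in Mmp3, 63 in Mmp10, 44 in Mmp12 and 93 in Mmp1b. Mmp7 and Mmp20 also held it. The stretches of Mmp1b (79 bases) and Timp3 (60 bases) leave out bases inside the first exon of the GENCODE annotation, so they end short of the RefSeq start. Mmp12 and Mmp7 each have a further window without it, and for Mmp12 the window with the motif was chosen for display. The TATA motif TATAAA, searched on both strands, was in 8 of those 9 genes and in 2 of the 22, against 13.6% of all windows. A match is a match of letters only, and the sequence of strain 129 was not examined.

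With edgeR's quasi-likelihood test, 3 members rose in 129 (Mmp11, Mmp13 and Mmp17) and 1 fell (Timp3). The test compared 129 with B6 over 16005 genes with enough counts, and a gene was called at a Benjamini-Hochberg adjusted p under 0.05. Of the 45 members 40 were tested, of which 36 did not pass. Among all genes tested 1.84% were called higher and 1.02% lower, 2.86% in either direction. DESeq2 called 15 members higher and 2 lower, against 9.63% and 5.7% of all genes (15.3% in either direction). The limma-voom fit called 1 higher and 2 lower, against 1.02% and 0.625% (1.64%), and 24 members had an unadjusted p under 0.05 in edgeR, as did 28.1% of all genes. The median log2 fold change (129 over B6) was 1.12 over the members tested and 0.015 over all genes tested, and it was above 0 for 31 of the 40 members and 50.9% of all genes. Both 129 libraries were above both B6 libraries for 23 of the 40 members and below them for 6, where 31.0% and 29.2% of all genes were so placed (60.1% in either direction). Of the 40, 31 members passed the filter on low counts in both strains, 3 through the 129 libraries only and 2 through the B6 libraries only. Another 4 (Mmp8, Mmp25, Adamts16 and Adamts18) passed in only some libraries of a strain, so these counts are a description. Leaving out 1 library moved the calls. Without 129 replicate 1, 1 member was called higher and 0 lower, against 0.0721% and 0.00601% of all genes (0.0782% in either direction), and without 129 replicate 2, 9 were called higher and 1 lower, against 4.46% and 0.458% (4.92%). Without B6 replicate 1, 0 members and 0.0% of all genes were called, and without B6 replicate 2, 0 members were called, against 0.00595% of all genes, all of it lower. The median over the members was 0.68 without 129 replicate 1 and 1.46 without 129 replicate 2.

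**Figure D1:**
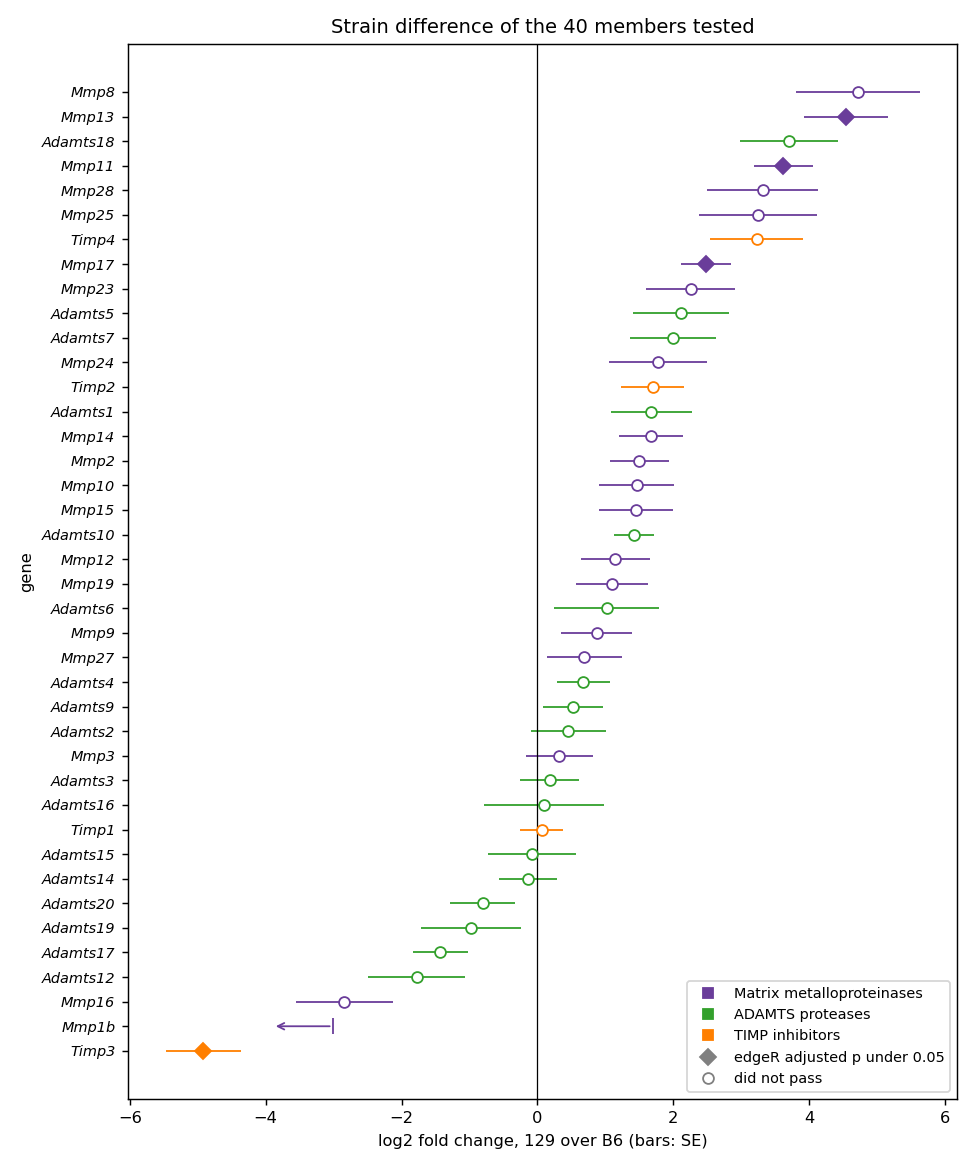
Log2 fold change of 129 over B6 for the 40 members tested, with its standard error as a bar, coloured by family. Filled diamonds passed edgeR's test (Mmp13, Mmp11, Mmp17 and Timp3), open circles did not, and the arrow marks Mmp1b, which had no count in 129 and is drawn at its bound.

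Libraries of a strain also differed. The germ cell markers, those of the labelled cell type, were all detected in every library, 12 of 12. Their summed level was 3884 to 4248 CPM in B6 and 2765 to 3572 CPM in 129, where 1 of 12, Uchl1, fell in edgeR. In both 129 libraries 9 of the 12 were below and 1, Ret, above both B6 libraries, against 29.2% and 31.0% of all genes. DESeq2 called 4 lower (Uchl1, Id4, Nanos2 and Mael) and 1 higher (Ret), against 5.7% and 9.63% of all genes. CPM is the count relative to library size after TMM scaling. Fibroblast markers were detected too, 18 of 18 in every library, at a summed 6796 and 4554 CPM in B6 replicates 1 and 2 and 8292 and 3558 CPM in 129 replicates 1 and 2, so the sums overlapped while single markers went both ways. In both 129 libraries 7 of the 18 markers were above and 9 below both B6 libraries, against 31.0% and 29.2% of all genes. In edgeR 2 rose (Pdgfra and Fbln1), 0 fell and 16 did not pass, against 1.84% and 1.02% of all genes called higher and lower. DESeq2 called 7 higher and 6 lower, against 9.63% and 5.7%. Those higher, with edgeR log2 fold changes, were Prrx1 (2.66), S100a4 (1.98), Pdgfrb (1.94), Pdgfra (1.88), Dcn (1.52), Twist1 (1.25) and Fbln1 (0.93). Those lower were Fap (-3.38), Fbn1 (-2.28), Postn (-2.22), Col3a1 (-1.86), Col1a1 (-1.44) and Thy1 (-1.28). Of the 18 markers 16 were higher in 129 replicate 1 than in replicate 2, by a median log2 ratio of 1.29. That ratio was 0.95 over the members tested and -0.0053 over all genes. In B6, 15 of the 18 were higher in replicate 1 than in replicate 2, by a median log2 ratio of 0.34. The B6 ratio was 0.15 over the members tested and -0.0034 over all genes. Sertoli markers summed to 20.3 and 24.1 CPM in B6 and 222 and 131 CPM in 129, where 1 of 9 tested, Clu, rose, and Rhox8 was at 0 in both B6 libraries. DESeq2 called 2 higher, Clu and Rhox8, and 0 lower. In both 129 libraries 7 of the 9 (Clu, Sox9, Wt1, Gata4, Dhh, Amh and Rhox8) were above both B6 libraries and 0 below, against 31.0% and 29.2% of all genes. The median log2 fold change over the 9 was 1.52. Without Clu, a gene of many cell types, the sums were 16.6 and 13.9 CPM in B6 and 28.8 and 40.4 CPM in 129. Endothelial markers summed to 24.6 and 23.7 CPM in B6 and 204 and 86.6 CPM in 129, with 2 of 6 tested, Cdh5 and Eng, called higher. Without both the sums were 19.2 and 16.0 CPM in B6 and 20.3 and 27.0 CPM in 129, and Pecam1, Tek and Vwf overlapped between the strains. Kdr did not overlap, at 1.81 and 1.73 CPM in B6 and 3.96 and 3.70 CPM in 129. It did not pass (log2 fold change 1.11, SE 0.46, edgeR adjusted p = 0.17). Peritubular muscle markers (23.4 to 92.2 CPM) overlapped between the strains, with 1 of 5, Des, called higher, while Tagln was at 28.8 and 6.24 CPM in B6 and 3.62 and 2.28 CPM in 129 and was called lower by DESeq2 only (adjusted p = 0.0040). The sums of the macrophage markers (27.9 and 24.3 CPM in B6, 22.3 and 10.7 CPM in 129) and of the Leydig markers (9.04 and 6.24 CPM in B6, 4.2 and 4.36 CPM in 129) were lower in both 129 libraries. Single markers differed. Lyz2 and Star, the most abundant of each list, and the scarce Adgre1 and Hsd3b1 were below both B6 libraries. Ptprc, also scarce, was above them, and the others overlapped, among them Csf1r (log2 fold change 1.52, SE 0.77). Of 4 macrophage markers and 1 Leydig marker, Star, that could be tested, none was called by edgeR or DESeq2 and none had an unadjusted p under 0.05. The part of these cells in the results was not tested, and in such bulk libraries fewer cells of a type and less RNA per cell cannot be told apart.

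Collagenases cleave the triple helix of fibrillar collagens, and Mmp13, which encodes collagenase-3, rose in 129. Mmp13 (chromosome 9, 7272514-7283331, GRCm38) stood at 30.3 and 21.3 CPM in the B6 libraries and at 929 and 270 CPM in the 129 libraries. Both 129 libraries were far above both B6 libraries, and 129 replicate 1 was the higher of its pair. The log2 fold change was 4.54 (SE 0.62, edgeR adjusted p = 0.033), and it was 3.39 without 129 replicate 1 and 5.17 without 129 replicate 2, still called in both. Without B6 replicate 1 or B6 replicate 2 it was 4.81 and 4.26 and the call ended (edgeR adjusted p = 0.20 and 0.13), as it did in limma-voom with all libraries (adjusted p = 0.054). Mmp8, neutrophil collagenase, was at 0.201 and 0.545 CPM in B6 and 14.6 and 4.46 CPM in 129, also without overlap. Its log2 fold change of 4.71 (SE 0.91) narrowly missed the threshold (edgeR adjusted p = 0.0501), and DESeq2 called it (adjusted p = 7.5e-07). Mmp1b, grouped with the collagenases by its name, had 15 and 11 counts in B6 and none in 129. It was at least 8.03-fold lower in 129, taking 3 counts for the group as the floor, which covers counting error only. It did not pass in edgeR (adjusted p = 0.070) or DESeq2 (adjusted p = 0.081), while limma-voom called it lower (adjusted p = 0.043). Reads shared with its paralog Mmp1a could not be assessed.

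**Figure D2:**
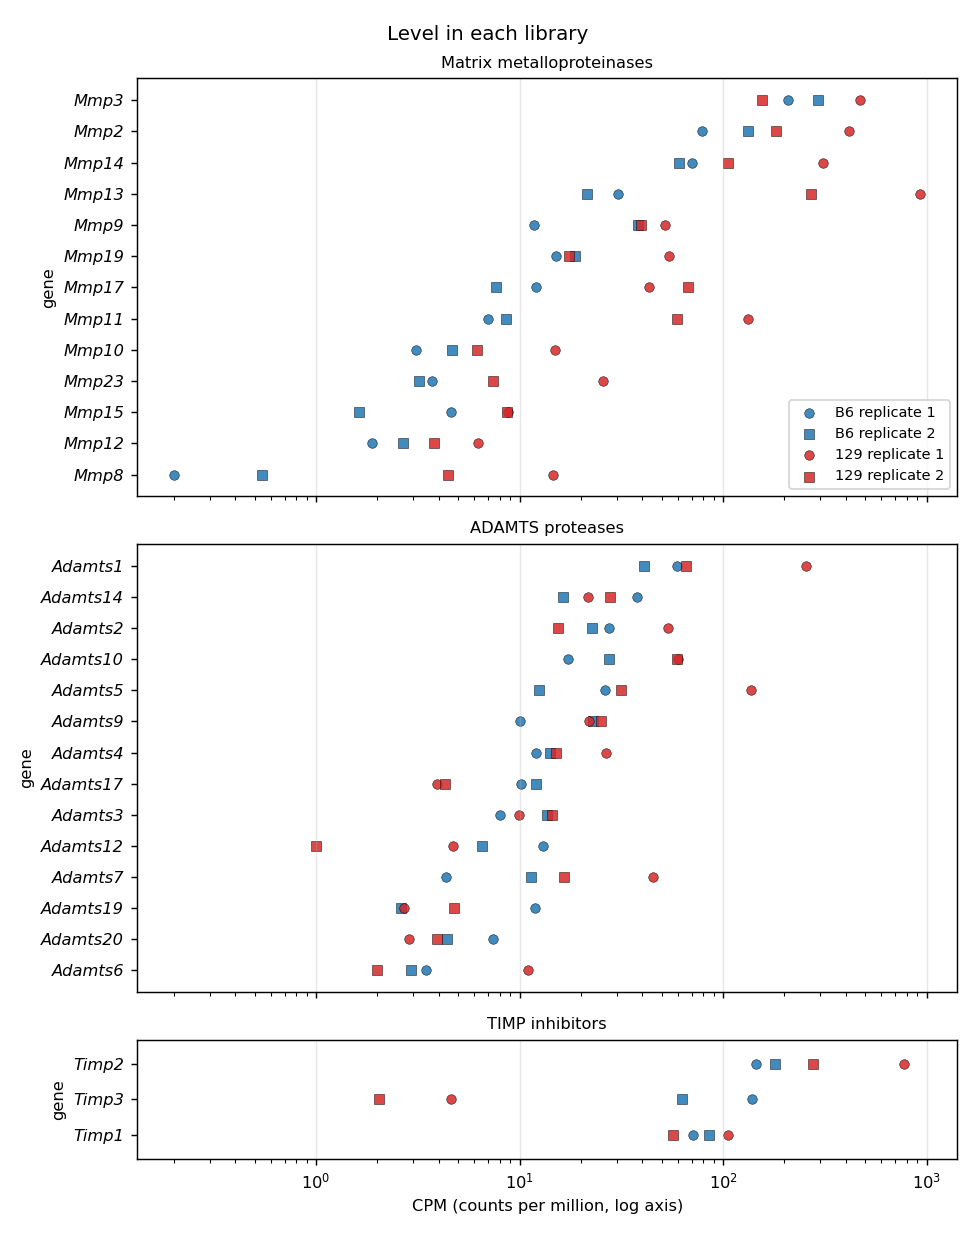
Level of each member named with values, in CPM on a log axis, with 1 point per library (B6 blue, 129 red; circle replicate 1, square replicate 2). Mmp13 and Mmp11 have both 129 points well to the right of the B6 points, Timp3 has both to the left, and Mmp3 and Timp1 overlap.

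Stromelysins have broad matrix substrates and can open other proenzymes, and their members differed. Mmp3, stromelysin-1, was abundant in every library, at 207 and 293 CPM in B6 and 471 and 155 CPM in 129. Its strains overlapped, since 129 replicate 2 was the lowest of all and 129 replicate 1 the highest (log2 fold change 0.32, SE 0.49, which was -0.69 without 129 replicate 1). Mmp10, stromelysin-2, was at 3.09 and 4.65 CPM in B6 and 14.9 and 6.21 CPM in 129 and did not pass (1.46, SE 0.56, edgeR adjusted p = 0.15). Mmp11, stromelysin-3, which unlike most secreted MMPs is activated inside the cell by furin, rose. Mmp11 (chromosome 10, 75923222-75936496) had 6.99 and 8.61 CPM in B6 and 132 and 59.4 CPM in 129, so that both 129 libraries were clear of both B6 libraries. Its log2 fold change was 3.62 (SE 0.44, edgeR adjusted p = 0.030). It was 2.94 without 129 replicate 1, 3.47 without B6 replicate 1 and 3.73 without B6 replicate 2, and each of these fits lost the call (edgeR adjusted p = 0.10, 0.19 and 0.11), as did limma-voom (adjusted p = 0.051). Exons of Mmp11 share 155 bp with Chchd10 on the opposite strand, which had 583 and 398 counts in B6 and 484 and 671 in 129. Mmp12, macrophage elastase, was at 1.89 to 6.23 CPM and did not pass (1.15, SE 0.50). Matrilysin, Mmp7, had 3 counts in B6 and none in 129.

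The gelatinases, which digest denatured collagen and type IV collagen, did not pass. Mmp2 was at 79.2 and 133 CPM in B6 and 418 and 182 CPM in 129, and Mmp9 at 11.8 and 38.3 CPM in B6 and 51.9 and 39.4 CPM in 129. For both genes the strains were apart, by a narrow margin for Mmp9. The log2 fold changes were 1.50 (SE 0.43, edgeR adjusted p = 0.093) for Mmp2 and 0.87 (SE 0.52, edgeR adjusted p = 0.32) for Mmp9. DESeq2 called Mmp2 (adjusted p = 0.0097) and not Mmp9 (adjusted p = 0.30).

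Membrane-type MMPs act at the cell surface, and 1 of 6, Mmp17, rose in 129. Mmp17 (chromosome 5, 129584169-129611099), which encodes an enzyme with a GPI anchor, was at 12.1 and 7.62 CPM in B6 and 43.4 and 67.0 CPM in 129. The strains were apart, and here 129 replicate 2 was the higher of its pair, the reverse of Mmp13, Mmp11 and 16 of the 18 fibroblast markers. Its log2 fold change was 2.48 (SE 0.37, edgeR adjusted p = 0.034), limma-voom also called it (adjusted p = 0.048), and it was 2.13 to 2.85 with each library left out in turn. None of those 4 fits called it (edgeR adjusted p = 0.0535 to 0.15). Mmp14, the transmembrane activator of pro-Mmp2, was at 70.1 and 60.7 CPM in B6 and 310 and 106 CPM in 129 (1.67, SE 0.48, edgeR adjusted p = 0.090, DESeq2 adjusted p = 0.0066). Mmp15, a transmembrane relative of Mmp14, was at 4.58 and 1.63 CPM in B6 and 8.74 and 8.63 CPM in 129 and did not pass (1.45, SE 0.54). Of the 3 scarce members of this group, Mmp25, also GPI-anchored, had 0 and 15 counts in B6 and 58 and 78 in 129. Mmp24 had 3 to 19 counts per library. Mmp16 went the other way, with 41 and 23 counts in B6 and 6 and 2 in 129 (log2 fold change -2.84, SE 0.71), without passing (edgeR adjusted p = 0.065).

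Among the other MMPs, none of the 4 tested passed in edgeR, 2 had an unadjusted p under 0.05, and DESeq2 called 2, Mmp23 and Mmp28. Over all genes 28.1% had such a p, and DESeq2 called 15.3%. Mmp23 was at 3.70 and 3.22 CPM in B6 and 25.7 and 7.44 CPM in 129 (2.25, SE 0.65). Mmp28, epilysin, had 7 and 6 counts in B6 and 90 and 32 in 129. Mmp19 was at 15.0 and 18.8 CPM in B6 and 54.4 and 17.6 CPM in 129, where only 129 replicate 1 stood out, and its exons share 789 bp with Tmem198b on the opposite strand. Mmp27 had 13 to 27 counts per library. Mmp20, enamelysin of the tooth, and Mmp21 had at most 1 count in any library.

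Mmp13 took over from Mmp3 as the MMP with the most counts. Mmp3 held 46.1% and 49.1% of the summed MMP CPM in the B6 libraries and 18.9% and 16.6% in the 129 libraries. Mmp13 held 6.73% and 3.57% in B6 and 37.3% and 28.9% in 129. The shares of both genes were apart between the strains. Per kilobase of exon, which allows levels of different genes to be set side by side, Mmp3 was at 139 ± 33.7 CPM per kb in B6 and 174 ± 124 in 129 (SD, n = 2). Mmp13 was at 9.66 ± 2.37 CPM per kb in B6 and 224 ± 174 in 129. These SDs hold the difference between libraries that the genes share, and within each 129 library Mmp13 was above Mmp3, at 348 against 262 and at 101 against 86.0 CPM per kb. On that scale the order of the members in B6 began with Mmp3, Timp1 (88.0 ± 10.9), Timp2 (41.7 ± 6.38) and Mmp2 (31.4 ± 11.3), and in 129 with Mmp13, Mmp3, Timp2 (135 ± 91.2), Timp1 (91.8 ± 39.4) and Mmp2 (88.9 ± 49.4). In B6 the means of Timp2 and Mmp2, and in 129 those of all neighbours among these 5 genes, lay closer than the larger of their SDs. Within single libraries the genes kept the order of the means, except in 129 replicate 1, where Mmp2 (124) stood above Timp1 (119.7).

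**Figure D3:**
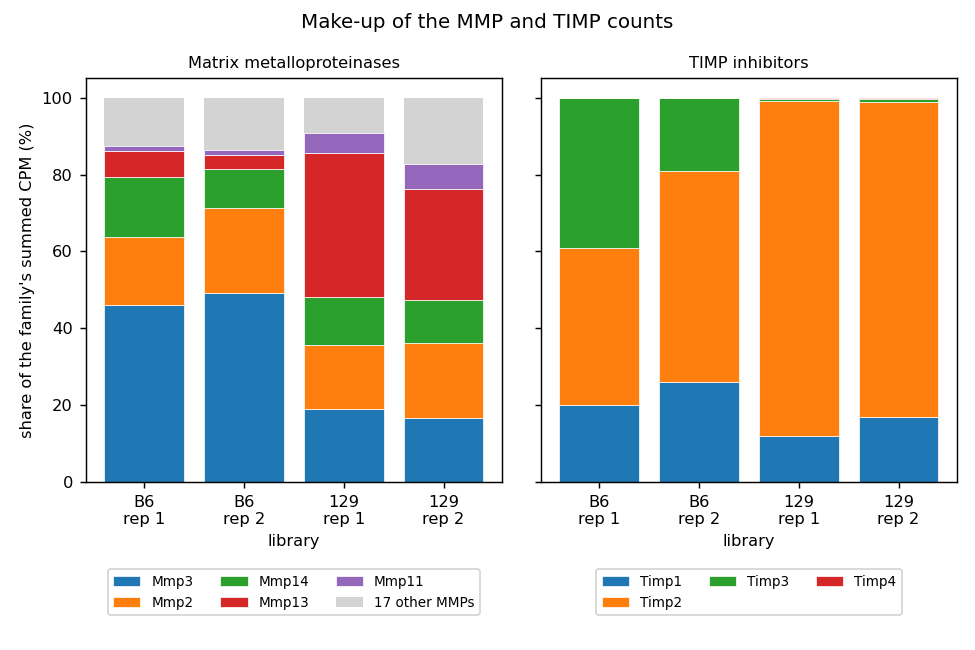
Share of each gene in the summed CPM of the MMPs (left) and of the TIMPs (right), 1 bar per library. Mmp3 takes 46.1% and 49.1% in B6 and Mmp13 37.3% and 28.9% in 129, and Timp3 shrinks from 38.9% and 19.1% in B6 to under 1% in 129.

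The rule took 9 MMP genes from 1 cluster on chromosome 9, over 427 kb (7272514-7699585), the place of the promoters with TGANTCA shown above. Mmp1a also lies there, and the count table had no row under that name. In order along the chromosome the 9 are Mmp13, Mmp12, Mmp1b, Mmp3, Mmp10, Mmp8, Mmp27, Mmp20 and Mmp7. Of 7 tested, 1 rose, Mmp13, and 6 did not pass. Neighbours differed in size and direction: Mmp13 and Mmp8 had log2 fold changes above 4, Mmp12, Mmp10 and Mmp27 stood at 0.69 to 1.46, Mmp3 at 0.32, and Mmp1b had no count in 129. Mmp1b and Mmp12 share 157 bp of exon on opposite strands, and the sources used here do not say whether reads were counted by strand. The gene order did not sort the values, since Mmp13 at one end and Mmp8, 286 kb away, were the 2 highest. Of those 2, the window of Mmp13 holds TGANTCA and that of Mmp8 does not, and Mmp3, with the motif, overlapped between the strains.

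**Figure D4:**
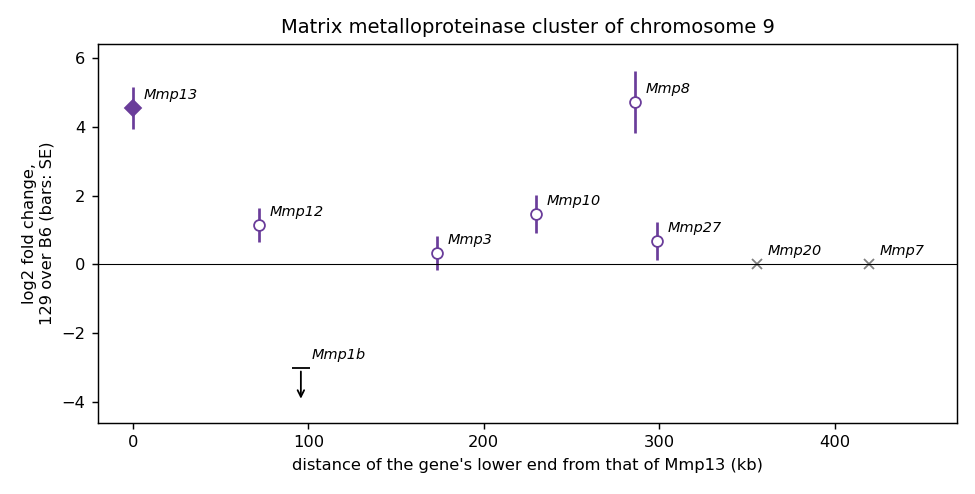
Log2 fold change of 129 over B6 (bars, SE) of the chromosome 9 MMP genes against the distance from Mmp13 in kb. The filled diamond passed edgeR's test, grey crosses at 0 mark genes that were not tested, and the arrow marks Mmp1b at its bound. Mmp13 and Mmp8 stand above 4, and the genes between them do not.

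No ADAMTS gene passed in edgeR, of 17 tested, although 7 had an unadjusted p under 0.05 and DESeq2 called 5 higher and 1 lower. Over all genes 28.1% had an unadjusted p under 0.05 in edgeR, and DESeq2 called 9.63% higher and 5.7% lower. Among the enzymes that cut proteoglycans such as aggrecan and versican, Adamts1 and Adamts5 lie next to each other on chromosome 16 and had a like pattern. Adamts1 was at 59.6 and 41.0 CPM in B6 and 257 and 65.7 CPM in 129, and Adamts5, a major aggrecanase, at 26.4 and 12.5 CPM in B6 and 137 and 31.5 CPM in 129. For both the strains were apart, but the second 129 library was much nearer to B6 than the first. Their log2 fold changes were 1.68 (SE 0.60, edgeR adjusted p = 0.13) and 2.11 (SE 0.71, edgeR adjusted p = 0.12), and both were called without 129 replicate 2. Adamts4, the other classical aggrecanase, was at 12.1 to 26.7 CPM over the 4 libraries (0.68, SE 0.39) and did not pass. Adamts9 stood at 10.0 and 23.0 CPM in B6 and 22.0 and 25.1 CPM in 129 and overlapped. Adamts20, at 2.85 to 7.39 CPM, was lower in both 129 libraries without passing (-0.81, SE 0.48). Adamts15 had 25 to 108 counts per library and Adamts8 2 to 12.

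The procollagen N-propeptidases, which trim fibrillar procollagens, did not pass. Adamts2 was at 27.5 and 22.7 CPM in B6 and 53.4 and 15.4 CPM in 129. Adamts3 was at 8.03 and 13.6 CPM in B6 and 9.90 and 14.5 CPM in 129, and Adamts14 at 37.9 and 16.4 CPM in B6 and 21.7 and 27.8 CPM in 129. The strains overlapped for all 3, with log2 fold changes of 0.45 (SE 0.55), 0.18 (SE 0.43) and -0.14 (SE 0.43). Each of these changed sign when 1 library was left out. Adamts13, the protease of von Willebrand factor, had 0 to 6 counts per library.

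Of the other ADAMTS genes, Adamts10, whose product binds fibrillin microfibrils, had close libraries in 129. It stood at 17.2 and 27.5 CPM in B6 and 60.1 and 59.6 CPM in 129, apart by more than the gap within either strain (1.42, SE 0.30, edgeR adjusted p = 0.054, DESeq2 adjusted p = 0.00068). Adamts7, which cleaves cartilage oligomeric matrix protein, was at 4.34 and 11.3 CPM in B6 and 45.1 and 16.5 CPM in 129 (1.99, SE 0.63, edgeR adjusted p = 0.11). Adamts12, its relative, went the other way, with 13 and 6.53 CPM in B6 and 4.73 and 0.996 CPM in 129 (-1.78, SE 0.71, edgeR adjusted p = 0.16). Adamts17 was at 10.2 and 12.1 CPM in B6 and 3.91 and 4.31 CPM in 129, with close replicates in each strain (-1.43, SE 0.40, edgeR adjusted p = 0.084, DESeq2 adjusted p = 0.0082). Adamts18 had 13 and 1 counts in B6 and 75 and 95 in 129 and lay at the threshold (3.70, SE 0.72, edgeR adjusted p = 0.0503). Adamts6 (1.99 to 11 CPM) and Adamts19 (2.62 to 11.9 CPM) overlapped between the strains, each with 1 library well above the other 3. Adamts16 had 2 to 36 counts per library.

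The 4 TIMPs, which differ in where they act, had unlike strain differences. Timp3, which binds to the matrix and inhibits ADAMTS proteases as well as MMPs, fell in 129. Timp3 (chromosome 10, 86300372-86349506) was at 138 and 62.7 CPM in B6 and 4.59 and 2.04 CPM in 129, with both 129 libraries far below both B6 libraries. The log2 fold change was -4.92 (SE 0.55, edgeR adjusted p = 0.029), and it was -5.61 to -4.25 with each library left out. The call held without 129 replicate 2. It ended when any other library was left out, with an edgeR adjusted p of 0.15 without B6 replicate 1, 0.088 without B6 replicate 2 and 0.10 without 129 replicate 1. Timp3 shares 1733 bp of exon with Syn3 on the opposite strand, and Syn3 had 84 and 72 counts in B6 and 40 and 49 in 129.

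Timp2, which both inhibits Mmp2 and helps Mmp14 to activate it, was at 145 and 180 CPM in B6 and 777 and 275 CPM in 129. The strains were apart, with a log2 fold change of 1.70 (SE 0.46) that missed the threshold in edgeR (adjusted p = 0.084) and passed in DESeq2 (adjusted p = 0.0041). Without 129 replicate 2 edgeR called it, as it did Mmp2 and Mmp14. Timp1, a secreted inhibitor, was at 71.3 and 85 CPM in B6 and 106 and 56.8 CPM in 129, overlapping, with a log2 fold change of 0.062 (SE 0.32). Timp4 had 4 and 6 counts in B6 and 55 and 34 in 129 (3.23, SE 0.69, edgeR adjusted p = 0.054, DESeq2 adjusted p = 0.017), and shares 90 bp of exon with Syn2 on the opposite strand, at 168 to 514 counts. Of the summed TIMP CPM, Timp3 held 38.9% and 19.1% in B6 and 0.515% and 0.608% in 129, while Timp2 held 40.9% and 54.9% in B6 and 87.3% and 82.0% in 129. The summed CPM of the MMPs over that of the TIMPs was 1.27 and 1.82 in the B6 libraries and 2.79 and 2.78 in the 129 libraries. The strains did not overlap in that ratio, which counts RNA and not protein. Without Mmp13 it was 1.18 and 1.76 in B6 and 1.75 and 1.98 in 129, and the strains overlapped.

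**Figure D5:**
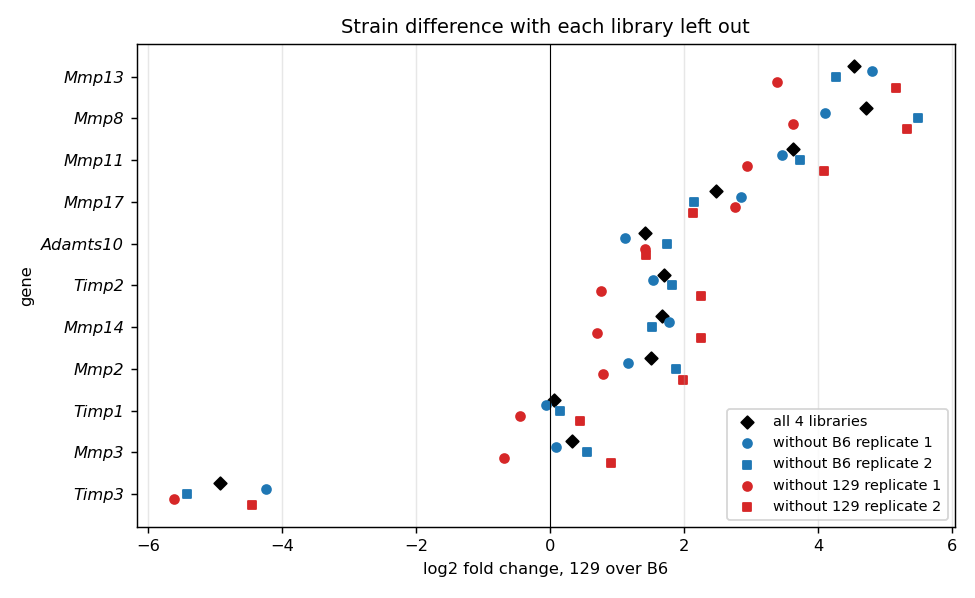
Log2 fold change of 129 over B6 for 11 members with all 4 libraries (black) and with each library left out in turn. Mmp13, Mmp8, Mmp11, Mmp17 and Timp3 keep their direction in every fit, Timp1 and Mmp3 do not, and Timp2, Mmp14 and Mmp2 come closer to 0 without 129 replicate 1.

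Genes around the family were read from lists of 60 genes in all, of which 52 were tested, 1 rose, 1 fell and 50 did not pass in edgeR. DESeq2 called 8 higher and 9 lower, against 9.63% and 5.7% of all genes. In edgeR 25 of the 52 had an unadjusted p under 0.05, as did 28.1% of all genes. The median log2 fold change over the 52 was -0.33. Of 9 activators and cofactors none passed in edgeR, 3 had an unadjusted p under 0.05, and DESeq2 called 1 higher and 1 lower. Furin, the convertase that opens Mmp11 and Mmp14, was at 94.9 and 74.1 CPM in B6 and 126 and 76.1 CPM in 129, and Plat, tissue plasminogen activator, at 96.7 and 140 CPM in B6 and 95.2 and 70.7 CPM in 129. Of 11 other inhibitors and clearance genes 5 had an unadjusted p under 0.05. DESeq2 called 1 higher, Lrp1, and 3 lower: Tfpi2, A2m (log2 fold change in edgeR -2.03, SE 0.69) and Reck (-0.83, SE 0.25). In edgeR 1 fell, Tfpi2, an inhibitor of serine proteases, with 85 counts in B6 and 1 in 129. The B6 to 129 ratio of Tfpi2 was 78.8 (95% exact counting interval 13.8 to 3148). Its edgeR adjusted p was 0.038, and none of the 4 fits with a library left out called it. Lrp1, the endocytic receptor that clears Mmp13 and several ADAMTS proteases, was at 367 and 567 CPM in B6 and 2152 and 887 CPM in 129 (1.70, SE 0.43, edgeR adjusted p = 0.073, DESeq2 adjusted p = 0.0022). Bsg, an inducer of MMPs, was at 399 and 309 CPM in B6 and 402 and 266 CPM in 129.

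No ADAMTS-like gene passed in edgeR, of 6 tested, with 4 at an unadjusted p under 0.05 and 3 called by DESeq2. Over all genes 28.1% had such a p, and DESeq2 called 15.3%, with 9.63% higher and 5.7% lower. Adamtsl5 was at 4.58 and 3.47 CPM in B6 and 43.1 and 10.3 CPM in 129, and Adamtsl4 at 4.66 and 5.05 CPM in B6 and 13.6 and 15.4 CPM in 129. Of 10 ADAM and astacin proteases none passed in edgeR, 6 had an unadjusted p under 0.05, and DESeq2 called 1. The sheddases Adam10 (0.67, SE 0.27) and Adam17 (-0.44, SE 0.18) had small differences of opposite sign. Of 16 substrates 7 had an unadjusted p under 0.05, and DESeq2 called 3 higher and 4 lower. In edgeR 1 rose, Col2a1, a fibrillar collagen of cartilage cleaved by Mmp13, from 12.0 and 10.5 CPM in B6 to 58.5 and 81.8 CPM in 129. Its log2 fold change was 2.63 with an SE of 0.29 (edgeR adjusted p = 0.029), and 1 of the 4 fits with a library left out called it. Col3a1 was at 1357 and 641 CPM in B6 and 423 and 126 CPM in 129 (-1.86, SE 0.60), and Fn1, fibronectin, at 1775 and 1274 CPM in B6 and 4067 and 1667 CPM in 129 (0.91, SE 0.41). Neither passed in edgeR (adjusted p = 0.11 and 0.21), and DESeq2 called Col3a1 lower (adjusted p = 0.0086).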

How the data were processed

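RNA was measured in 4 libraries of cultured spermatogonia, 2 per strain. The authors deposited raw counts of reads per gene. The tools named, per the submitters' processing notes, include HISAT2 2.2.1 for the build mm10, HTSeq 0.13.5, cutadapt 3.4, bcl2fastq 2.20 and DESeq2 1.30.1. The sources used here do not give their settings or the annotation release. Depth was 20375086 to 25374801 counts per library, and floors and intervals cover counting error only.

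Libraries were grouped by title. In edgeR 4.0.16 (R 4.3.3), filterByExpr kept 16005 genes, and TMM factors and the robust quasi-likelihood fit were used, with a single term for strain. Adjustment was by Benjamini-Hochberg over all genes tested. SE values came from dividing the absolute log2 fold change by the root of F. With 2 libraries per strain an exact permutation test cannot go below p = 0.33. The fits were tested on simulated data. Positions and exon lengths came from GENCODE M21 (GRCm38), which holds 32235 of the identifiers and all 45 members, and promoters from RefSeq.

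The alternatives were DESeq2 size factors, no filter, DESeq2 1.42.0, limma-voom 3.58.1, a replicate block and each library left out. The legacy edgeR form was added after seeing the data. Members called or reaching 5 CPM in any library, 30 in all, are given with values, and the other 15 by counts. Fold changes of Mmp1b, Mmp16, Mmp27, Adamts18 and Timp4 were added after their values were seen. In the related lists genes called by edgeR and the 2 most abundant of each are named. A2m and Reck were added after their values were seen. The members and lists were chosen with earlier results of these data known.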

Additional observations from a re-analysis of the deposited data

How the results depend on the processing

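Over all genes, edgeR called 457, against 2455 in DESeq2, 263 in limma-voom, 260 without the filter, and 0 to 827 with each library left out. With 0 calls, without B6 replicate 1, 3251 genes had an unadjusted p under 0.05. Members called higher were 3, against 15 in DESeq2, 5 with DESeq2 size factors, 1 in limma-voom and 0 to 9 with a library left out. Members called lower were 1, against 2 in DESeq2, 2 in limma-voom and 0 to 1 with a library left out. In the related lists 1 was called higher and 1 lower, against 8 and 9 in DESeq2, and 0 to 6 and 0 with a library left out. Leaving out a library leaves fewer samples, and the lone library of a strain is then assumed to vary like the pair of the other. The cause of the other differences was not tested.

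Whether the replicate numbers of the titles pair the samples is not known. Deviations of same-numbered libraries correlated at -0.014 over genes, which cannot show that no batch was shared, since some sets of genes may still shift together. With the number as a block, edgeR called 844 genes (5.27%), 9 members higher and 1 lower (3.89% and 1.38% of all genes), and in the related lists 2 higher and 5 lower. Timp1 had a log2 fold change of -0.0014 under that block.

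Of the 30 members given with values, 7 changed sign with a library left out, none of them called: Adamts14 (-0.66 to 0.59), Adamts19 (-1.71 to 0.51), Adamts2 (-0.70 to 1.09), Adamts3 (-0.17 to 0.56), Adamts6 (-0.68 to 1.78), Mmp3 (-0.69 to 0.91) and Timp1 (-0.46 to 0.45). The legacy edgeR form called Mmp8 as well. The sums without Clu, without Cdh5 and Eng, and the ratio without Mmp13 were chosen after seeing the data. Depth limits the members with few counts, such as Mmp7, Mmp20 and Mmp21.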
